A study of Mus musculus with 6 samples.

Results

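The genes described here are 9 members of the S100 family of calcium-binding proteins, namely S100a8, S100a9, S100a1, S100a3, S100a4, S100a6, S100a10, S100a11 and S100a13. They were chosen by symbol out of 19938 genes that the array names, and each gene was read from its brightest probe set, a group of probes that measures 1 transcript. All 9 were measured, and 8 of them lay above the brightness threshold used for the test across genes. The cells were from the spleens of 3 mice given rapamycin, an inhibitor of the kinase mTOR, by injection into the abdomen at 1.5 mg/kg on alternate days, and of 3 mice given PBS on the same schedule. All 6 mice were lethally irradiated B6D2F1/J recipients of marrow from B6 donors from which T cells had been removed, studied on day 10. The protocol text names grafts with and without added B6 spleen cells and does not say which mice had which, and it gives no age of the mice. Per the labels these are myeloid-derived suppressor cells, or MDSCs, a name for immature myeloid cells that restrain T cells, and the sort used magnetic beads against CD11b alone, so that neutrophils, monocytes and macrophages, of the donor or left from the host, could all be held in it. Each mouse gave 1 array, and the small number of arrays limits the precision of every value.

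S100 proteins are small proteins of vertebrates that bind calcium through a pair of EF-hand loops and mostly work as dimers. S100A8 and S100A9 form the heterodimer calprotectin, which makes up a large part of the cytosol of neutrophils, binds zinc and manganese away from microbes, and acts outside the cell as a danger signal through Toll-like receptor 4 and the receptor RAGE. In mouse tumour models S100A8 and S100A9 are known for holding back the maturation of myeloid cells and for drawing MDSCs in. Many of the other members are found in a range of cell types, and most bind annexins, myosin or other partners when calcium rises.

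Values below are the authors' deposited log2 expression values, made with RMA, so that a difference of 1 is a doubling. The arrays ran between 2.71 and 14.2, with medians from 5.42 to 5.46. The marker of the sort, Itgam (CD11b), stood between 12.2 and 12.3 with rapamycin and between 12.3 and 12.5 with PBS, and the neutrophil marker Ly6g between 11.7 and 12.2 with rapamycin and between 12.2 and 12.4 with PBS. Neither passed the test in limma (log2 difference of -0.12 ± 0.06 (SE), adjusted p 0.221, for Itgam and of -0.31 ± 0.14, adjusted p 0.202, for Ly6g). Of 13965 genes tested, 617 were called higher with rapamycin and 967 lower at an adjusted p under 0.05, and with the arrays' medians over these genes aligned, a setting added after the data were seen, 875 were higher and 707 lower. In bulk samples such as these, a change in the number of cells of a type and a change in RNA per cell cannot be told apart.

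S100a6 and S100a11 rose with rapamycin, S100a6 by 1.26-fold and S100a11 by 1.14-fold, and 0 members fell; at an unadjusted p under 0.05 the same pair was higher and S100a4 lower. S100a8 and S100a9, the calprotectin pair, stayed within 0.18 log2 units of their PBS level by their 95% intervals, on probe sets close to the upper end of the arrays. S100a4 stood 1.21-fold lower with rapamycin and did not pass the test. Of the 8 members above the threshold, 2 were called higher, 0 lower and 6 did not pass, against 4.42% of all genes tested called higher, 6.92% called lower and 11.3% called in either direction. The median log2 difference of the 8 was 0.08, and that of all genes tested was -0.017. The 3 arrays of one group all lay to 1 side of the other 3 for 5 of the 8 members, 3 of them higher (S100a1, S100a6 and S100a11) and 2 lower (S100a4 and S100a9), where 32% of all genes tested did so, 12.6% with rapamycin higher and 19.4% with rapamycin lower. Neither call held in all fits, since S100a6 lost its call in each of the 6 fits that left out 1 array, and S100a11 in 5 of the 6.

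**Figure D1:**
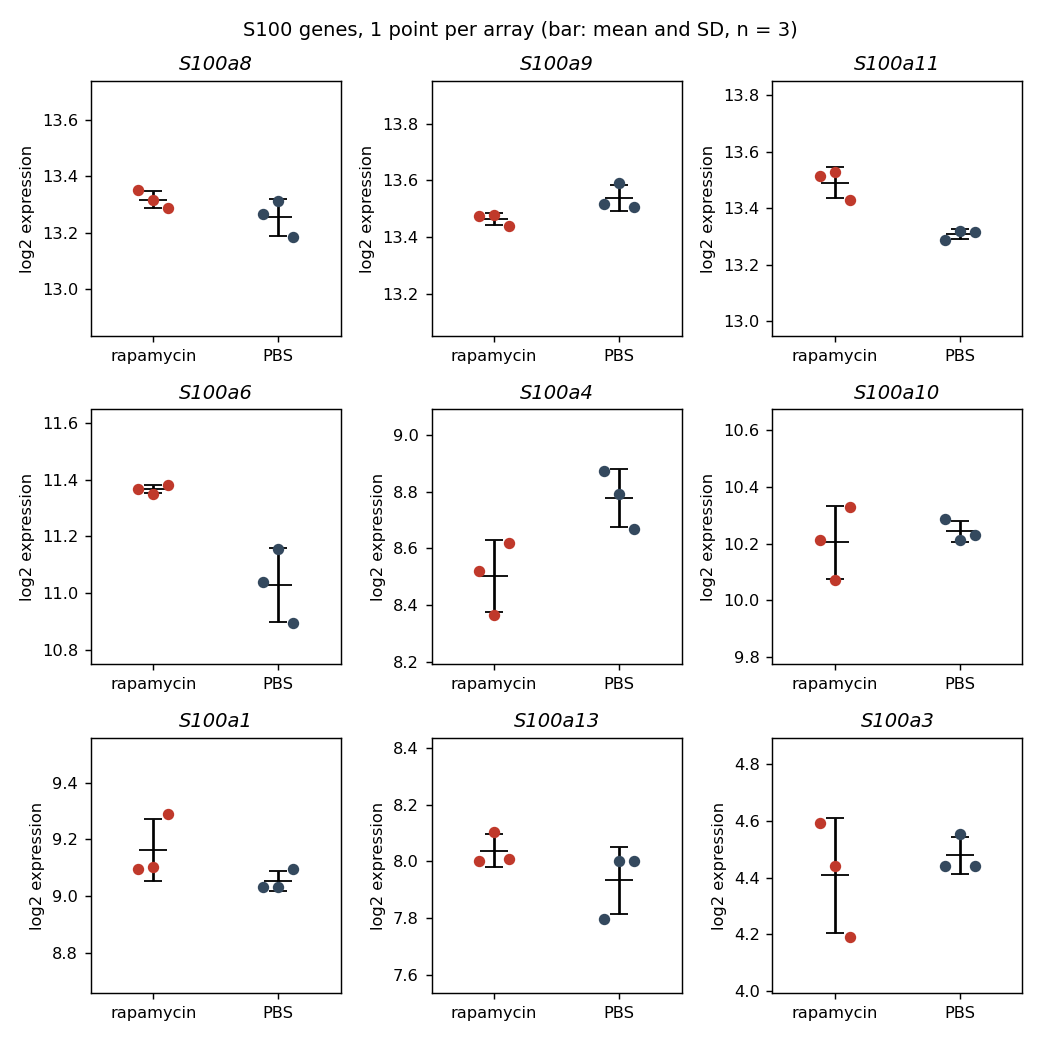
Log2 expression of the 9 S100 genes, with 1 point per array, rapamycin left of PBS, and the mean and SD of 3 arrays as bars; every panel spans the same height on the log2 scale. S100a6 and S100a11 lie higher in all 3 rapamycin arrays, S100a4 and S100a9 lie lower in all 3, and S100a3 is near the dim end of the arrays.

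S100a8 and S100a9, the calprotectin pair, did not pass the test. S100a8 read 13.35, 13.31 and 13.29 in the 3 rapamycin arrays, and 13.27, 13.31 and 13.18 in the 3 PBS arrays. The groups overlapped, since 1 PBS array lay above the lowest rapamycin array. S100a8 differed by 0.06 ± 0.05 (SE), with a 95% interval from -0.05 to 0.18, and limma's adjusted p was 0.445; without PBS replicate 3 the difference was 0.03. S100a9 read 13.48, 13.48 and 13.44 with rapamycin and 13.52, 13.59 and 13.50 with PBS. All rapamycin arrays lay just under all PBS arrays, by a margin smaller than the spread of the PBS arrays. The difference of S100a9 was -0.07 ± 0.04, with a 95% interval from -0.18 to 0.03, and limma's adjusted p was 0.330; without PBS replicate 2 the difference was -0.05. As folds, these intervals run from 0.964 to 1.13 for S100a8 and from 0.884 to 1.02 for S100a9. Within each array, S100a8 minus S100a9 was -0.126, -0.164 and -0.149 with rapamycin and -0.249, -0.278 and -0.321 with PBS. This measure was chosen after its values were seen. The means differed by 0.137, and a 2-sided exact permutation test gave p = 0.1, the smallest that 3 arrays against 3 allow. S100a9 alone already set the groups apart, and the measure was picked from these values, so this p adds no information. The sizes of these readings depend on the probes, so only their change between groups can be read.

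These probe sets were among the brightest on the arrays. S100a9, S100a11 and S100a8 held ranks 5, 9 and 10 by brightness among the 19938 named genes, with means over all arrays of 13.5, 13.4 and 13.3, where the brightest gene averaged 13.9. Among the 18 genes tested with a mean of at least 13, the median absolute difference between the groups was 0.068 log2 units and 1 gene was called (5.56%), which was S100a11. Among the 95 genes with a mean from 12 to 13 the median absolute difference was 0.119 and 25.3% were called, and among the 766 genes from 10 to 12 it was 0.133 with 24.2% called. The median SD within groups was also smaller at the top, at 0.036 for the 18 genes and 0.060 for the 95. The 18 also hold Lcn2, Ngp, Chil3 and Ltf, granule and secreted proteins of neutrophils, named here after their values were seen. They differed by -0.00 for Lcn2, -0.03 for Ngp, 0.03 for Chil3 and -0.08 for Ltf. The deposited values hold no flag for saturated spots, so whether these probes were saturated was not tested.

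**Figure D2:**
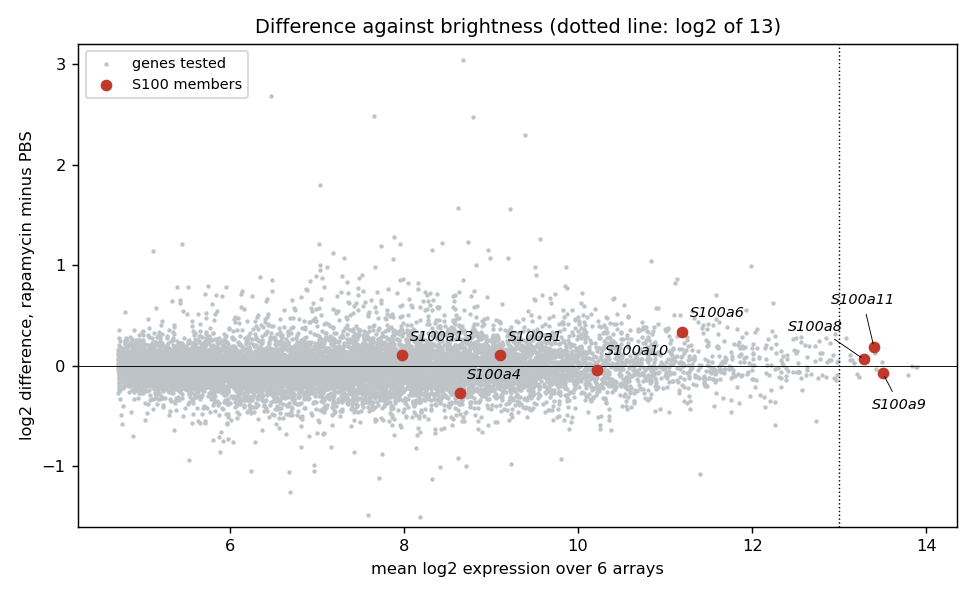
Log2 difference of rapamycin minus PBS (vertical) against the mean log2 expression over the 6 arrays (horizontal) for the 13965 genes tested in grey and the 8 S100 members above the threshold in red. S100a8, S100a9 and S100a11 lie right of the dotted line at 13, where the cloud of genes narrows, and S100a6 lies above the zero line at 11.2.

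RefSeq's promoter table for mouse (build GRCm38.p6) held entries for 8 of the 9 members. S100a10 had none there. The promoters of S100a8 and S100a9 are shown because their proteins form 1 complex and the genes face opposite ways on chromosome 3. Each runs from 250 bases before to 50 bases after the annotated start, 5′ to 3′ on the gene's strand, with matches to the TATA box (TATAAA, sense strand) and to a C/EBP core (TTNNGNAA, both strands) in capitals. S100a8 lies at chr3:90668821-90669120 on the + strand and S100a9 at chr3:90695672-90695971 on the - strand.
S100a8: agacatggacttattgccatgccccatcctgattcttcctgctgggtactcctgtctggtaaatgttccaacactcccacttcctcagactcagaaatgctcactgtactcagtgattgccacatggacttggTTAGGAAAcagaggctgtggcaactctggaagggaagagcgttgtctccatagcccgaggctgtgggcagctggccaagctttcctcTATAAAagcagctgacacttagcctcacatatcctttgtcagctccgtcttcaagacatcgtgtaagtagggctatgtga
S100a9: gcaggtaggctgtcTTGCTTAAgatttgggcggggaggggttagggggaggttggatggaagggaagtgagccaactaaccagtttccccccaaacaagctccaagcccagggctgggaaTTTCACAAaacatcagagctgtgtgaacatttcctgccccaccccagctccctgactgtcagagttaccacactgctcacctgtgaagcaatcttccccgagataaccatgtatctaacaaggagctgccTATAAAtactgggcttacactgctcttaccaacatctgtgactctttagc
Each promoter holds 1 TATAAA, which starts at position -30 in S100a8 and at the annotated start itself in S100a9. Among the 32851 promoters of the table, 8.32% hold TATAAA and 40.7% hold the C/EBP core. S100a8 has 1 match to the C/EBP core and S100a9 has 2. A match describes the letters and does not show binding. An AP-1 motif (TGANTCA) and a STAT motif (TTCNNNGAA), each searched on both strands, were in neither of these promoters.

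S100a6, or calcyclin, which binds the ubiquitin ligase adaptor CacyBP and annexin A11, showed the clearest difference of the set. It read 11.37, 11.35 and 11.38 in the rapamycin arrays and 11.04, 11.15 and 10.89 in the PBS arrays. The 3 rapamycin arrays were nearly equal, and the PBS arrays spread over a wider range below them. S100a6 averaged 11.37 ± 0.01 with rapamycin and 11.03 ± 0.13 with PBS (SD, n = 3 each). It rose by 0.34 ± 0.07 (SE), with a 95% interval from 0.18 to 0.50, and limma's adjusted p was 0.0260. With 1 array left out, the difference ran from 0.27, without PBS replicate 3, to 0.40, without PBS replicate 2. In these 6 fits, which also had fewer samples, limma's adjusted p ran from 0.0504 to 0.0990. The nearest genes by Pearson's r over the 6 arrays were Rheb (r of 0.997), a small GTPase that activates mTOR complex 1, the hexokinase Hk1 (0.992) and the prolyl isomerase Ppia (0.986). A profile of 6 values in 2 groups is matched by many genes, and 64 of 6940 genes compared had an r above 0.95 with S100a6. The genes compared left out those whose range over the arrays was small beside that of S100a6.

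S100a11, or calgizzarin, which binds annexin A1, read 13.51, 13.53 and 13.43 with rapamycin and 13.29, 13.32 and 13.32 with PBS. The groups were apart by more than the range of the PBS arrays. It averaged 13.49 ± 0.05 with rapamycin and 13.31 ± 0.02 with PBS (SD, n = 3 each), a rise of 0.18 ± 0.05 (SE) with a 95% interval from 0.08 to 0.29 and an adjusted p of 0.0457 in limma. The array holds another probe set for S100a11, probe set 10493990, which read 13.47, 13.48 and 13.42 with rapamycin and 13.27, 13.26 and 13.28 with PBS. It gave a difference of 0.19 ± 0.04, with an adjusted p of 0.0336 in a limma fit of every probe set, a check added after the data were seen. A pseudogene copy of S100a11 is listed in the RefSeq gene table, and where the probes lie is not given in the files. For the brighter probe set, 10457640, on which the values above rest, 0 of the 4 named probe sets with the nearest IDs belong to genes of chromosome 3, so it may read a copy of the gene. For probe set 10493990 all 4 do. The call was lost without a brightness filter (adjusted p 0.0503), with the array medians over all probe sets aligned (0.0665), with the replicate number as a block (0.0766), in an unmoderated fit (0.0977) and without any one array other than rapamycin replicate 3, where it ran from 0.106 to 0.131. Without rapamycin replicate 3 the difference was 0.21 and the adjusted p 0.0380 in limma. By Pearson's r over the 6 arrays, the most similar genes were the acetyltransferase Ep300, the calcium-binding protein Efcab14 and the interleukin 4 receptor chain Il4ra, each at an r of 0.995, and 158 of 11473 genes compared were above 0.95.

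The promoters of S100a6 and S100a11 are shown as those of the members that rose. S100a6 lies at chr3:90612644-90612943 and S100a11 at chr3:93520246-93520545, both on the + strand of GRCm38.p6, with matches to the AP-1 motif in capitals.
S100a6: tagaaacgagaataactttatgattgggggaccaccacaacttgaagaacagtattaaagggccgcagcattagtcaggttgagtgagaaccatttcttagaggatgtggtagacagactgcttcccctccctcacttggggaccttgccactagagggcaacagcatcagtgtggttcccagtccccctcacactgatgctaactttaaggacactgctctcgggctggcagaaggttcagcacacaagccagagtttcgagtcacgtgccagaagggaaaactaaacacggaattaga
S100a11: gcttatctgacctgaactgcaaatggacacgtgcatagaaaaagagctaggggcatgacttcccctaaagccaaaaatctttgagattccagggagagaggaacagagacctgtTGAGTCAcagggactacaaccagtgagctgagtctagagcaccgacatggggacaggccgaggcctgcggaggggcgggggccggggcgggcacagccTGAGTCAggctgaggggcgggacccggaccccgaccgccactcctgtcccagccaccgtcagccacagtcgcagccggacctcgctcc
Neither holds TATAAA or the C/EBP core. S100a11 holds 2 matches to TGANTCA, against 7.81% of all promoters with at least 1, and S100a6 holds none. The promoter of S100a11 has 15 CG dinucleotides and that of S100a6 has 6, where the median promoter has 7. Of the members not shown, S100a4 has TATAAA at position -31, and 1 of the 4 promoters of S100a3 has it at -52, while 2 others of S100a3 hold the C/EBP core. The windows of S100a1 and S100a13 run on opposite strands and share 204 bases, so that this pair starts from 1 shared stretch.

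S100a4, known as metastasin, binds nonmuscle myosin IIA and is expressed in motile cells, among them macrophages and fibroblasts. It read 8.52, 8.37 and 8.62 with rapamycin and 8.87, 8.79 and 8.67 with PBS. All 3 rapamycin arrays lay below all PBS arrays, with a narrow gap between the nearest arrays. The difference of -0.27 ± 0.08 (SE), with a 95% interval from -0.46 to -0.09, had an adjusted p of 0.0709 in limma, short of the threshold. It was called at an adjusted p of 0.0490 after a repeated quantile normalization, of 0.0499 with the array medians over all probe sets aligned and of 0.0494 with array weights. S100a4 and S100a6 lie close together on chromosome 3 with S100a5 between them, and they stood in opposite directions. Within each array S100a6 minus S100a4 was 2.85, 2.98 and 2.76 with rapamycin and 2.17, 2.36 and 2.22 with PBS. The means of this measure, chosen after its values were seen, differed by 0.612 with an exact permutation p of 0.1 (2-sided), again the smallest the design allows. Each gene alone already set the groups apart, in opposite directions, so this p was fixed in advance and adds no information. The genes nearest to S100a4 by Pearson's r were Tspan3 (0.998), a tetraspanin, Ccdc174 (0.996) and Memo1 (0.995), and 83 of 6549 genes compared were above 0.95.

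None of the remaining members passed the test. S100a10, or p11, which binds annexin A2 without needing calcium, read 10.21, 10.07 and 10.33 with rapamycin and 10.29, 10.21 and 10.23 with PBS. The groups overlapped, and rapamycin was the more variable one. The difference of S100a10 was -0.04 ± 0.07 (SE), with a 95% interval from -0.20 to 0.13 and an adjusted p of 0.755 in limma, and without rapamycin replicate 2 it was 0.03. S100a1, best known from muscle, where it binds the ryanodine receptor, read 9.10, 9.10 and 9.29 with rapamycin and 9.03, 9.03 and 9.10 with PBS. The highest PBS array almost reached the lowest rapamycin array, and 1 rapamycin array stood above the rest. S100a1 differed by 0.11 ± 0.06, with an adjusted p of 0.305 in limma and a 95% interval from -0.04 to 0.26, and without rapamycin replicate 3 by 0.05. S100a13, which takes part in the release of FGF1 and interleukin 1 alpha, read 8.001, 8.103 and 8.007 with rapamycin and 7.797, 8.002 and 8.001 with PBS. PBS replicate 1 stood below the other arrays and rapamycin replicate 2 above them, while the rest lay close together. The difference of S100a13 was 0.10 ± 0.07, with a 95% interval from -0.06 to 0.26 and an adjusted p of 0.366 in limma. Without PBS replicate 1 this difference was 0.04, and without rapamycin replicate 2 it was 0.07. S100a3, a protein of the hair cuticle, read 4.59, 4.44 and 4.19 with rapamycin and 4.44, 4.55 and 4.44 with PBS, all under the brightness threshold of 4.72. In a limma fit of all 19938 named genes S100a3 differed by -0.07 ± 0.10, with an adjusted p of 0.720. By Pearson's r the nearest gene was Sin3b for S100a8 (0.989), Pip5k1b for S100a9 (0.996), Irs2 for S100a1 (0.990), Ap3m2 for S100a10 (0.986) and Mapk15 for S100a13 (0.999), each over 6 arrays.

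The array measured 8 further S100 genes, which gave low readings in both groups. Their mean level ran from 4.96 to 5.06 with rapamycin and from 4.99 to 5.06 with PBS, and 2 of them, S100a14 and S100z, were under the brightness threshold. Of the 6 tested, 0 were called in limma at an adjusted p under 0.05, and at an unadjusted p under 0.05 S100a2 alone was lower. S100a2 was nearest, at -0.23 ± 0.08 (SE) with an adjusted p of 0.0940, and its readings of 5.25, 5.28 and 5.12 with rapamycin lay below 5.46, 5.56 and 5.32 with PBS. S100g, which carries calcium in the gut, differed by 0.24 ± 0.12 (adjusted p 0.228 in limma), S100a16 by 0.13 ± 0.08 (0.336) and S100a5 by -0.10 ± 0.08 (0.483). S100b, known from glia, differed by 0.03 ± 0.04 (0.724) and S100a7a by 0.03 ± 0.08 (0.835). With the replicate number as a block, 1 of these further S100 genes was called. Of the 17 measured S100 genes, 14 lie on chromosome 3, all 9 members among them. In their order along it, the differences of S100a1 and S100a13 at one end were positive, that of S100a14 negative and that of S100a16 positive, those of S100a3, S100a2, S100a4 and S100a5 were negative, those of S100a6 and S100a7a positive, and those of the 4 members from S100a8 to S100a10 alternated in sign. Of these only S100a6 and S100a11 passed the test.

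**Figure D3:**
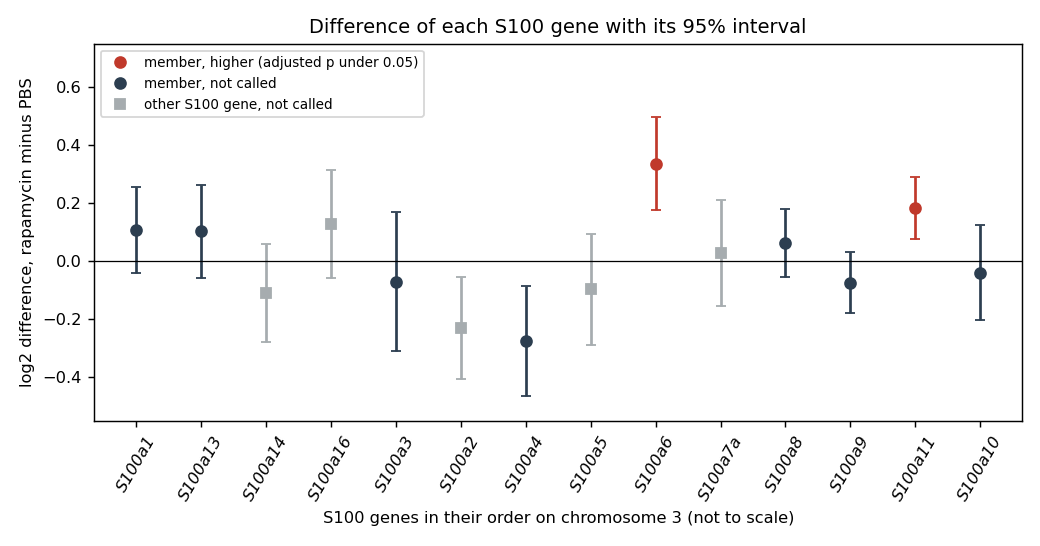
Log2 difference of rapamycin minus PBS with its 95% interval for the 14 measured S100 genes of chromosome 3, in their order along it and not to scale; circles are the members and squares the other S100 genes. The called genes S100a6 and S100a11 lie above zero, while S100a4 and S100a2 lie below it without passing the test; S100a3 and S100a14 come from the fit without a brightness filter.

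Several genes for the receptors of S100A8 and S100A9 and the signals behind them rose with rapamycin. Of 12 measured genes, 4 were called higher with rapamycin, 1 was called lower and 7 did not pass, where 4.42% of all genes tested were called higher and 6.92% lower, with a median log2 difference of 0.18 beside -0.017 for all genes tested. The mean level of the list ran from 8.67 to 8.68 with rapamycin and from 8.29 to 8.44 with PBS. Among the 3200 genes tested with a mean from 8 to 10, 19.3% were called in either direction. Cd14, the co-receptor that hands ligands to Toll-like receptor 4, read 9.46, 9.72 and 9.43 with rapamycin and 8.40, 8.54 and 8.23 with PBS. The groups were far apart, and Cd14 rose by 1.15 ± 0.10 (SE), with an adjusted p of 0.00431 in limma that stayed at or below 0.0404 when any 1 array was left out. Myd88, the adaptor of Toll-like receptors, read 11.24, 11.22 and 11.15 with rapamycin and 10.76, 10.63 and 10.51 with PBS. It rose by 0.57 ± 0.07 (adjusted p 0.00754 in limma), and without PBS replicate 2 the adjusted p was 0.0504.

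The other calls in that list were less firm. Cd36, a scavenger receptor that also binds S100 proteins, rose by 1.21 ± 0.25 (SE, adjusted p 0.0285 in limma). Tlr4, the receptor itself, which the rule for named genes did not take, rose by 0.39 ± 0.10 (0.0443). The ubiquitin ligase Traf6 fell by 0.27 ± 0.06 (0.0375). When arrays were dropped one at a time, Cd36 passed in 1 of 6 fits (rapamycin replicate 2 dropped) and so did Tlr4 and Traf6 (rapamycin replicate 3 dropped). The list then held 1 called gene when PBS replicate 2 was dropped, 2 for PBS replicate 1, for PBS replicate 3 and for rapamycin replicate 1, 3 for rapamycin replicate 2, and 4 for rapamycin replicate 3. Chosen after their values were seen, the following did not pass the test: Ly96, the partner of Tlr4, differed by 0.30 ± 0.10 (0.0885), Ager, which encodes RAGE, by -0.08 ± 0.04 (0.296), and Bsg, another receptor of S100A9, by -0.10 ± 0.04 (0.202).

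Of 16 measured genes of the binding partners, 14 were above the threshold, 1 was called lower and 13 did not pass, with a median of 0.01. That share is near the 6.92% of all genes tested called lower. Myh9, the heavy chain of nonmuscle myosin IIA and a partner of S100A4, fell by 0.27 ± 0.06 (SE, adjusted p 0.0323 in limma), and passed in 1 of 6 fits with single arrays dropped (PBS replicate 1). The annexins did not pass. Anxa11, a partner of S100A6, stood at -0.32 ± 0.08 (0.05004, just over the threshold), Anxa2, the partner of S100A10, at 0.18 ± 0.06 (0.0959) and Anxa1, the partner of S100A11, at -0.12 ± 0.05 (0.125). The list had 2 genes called without PBS replicate 1 and 0 in each of the 5 other such fits.

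Of 9 measured transcription factors linked to S100a8 and S100a9, 8 were above the threshold and 1 of those was called, a share near the 11.3% of all genes tested. Gfi1, a repressor needed for neutrophil development, fell by 0.34 ± 0.07 (SE, adjusted p 0.0273 in limma), and passed in 1 of 6 fits with single arrays dropped (rapamycin replicate 3). Cebpa, which directs granulocyte commitment, stood at 0.24 ± 0.07 (0.0723), Cebpd at -0.26 ± 0.10 (0.138) and Cebpb at -0.08 ± 0.05 (0.334). Of 11 measured genes for arachidonic acid release and the NADPH oxidase, to which calprotectin delivers its cargo, 10 were above the threshold, 1 rose and 1 fell, beside 4.42% and 6.92% of all genes tested. Pla2g4a, the phospholipase that frees arachidonic acid, rose by 0.29 ± 0.07 (0.0418) and kept its call in 0 of the 6 fits. The oxidase subunit Ncf1 fell by 0.24 ± 0.05 (0.0345) and kept it in 1 (rapamycin replicate 2 dropped). Ptgs2, which makes prostaglandin precursors, stood at 0.54 ± 0.18 (0.0952), and the oxidase subunit Cyba at -0.14 ± 0.05 (0.127).

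Other calcium-handling genes were lower in part. The list held EF-hand proteins outside the S100 family and the mitochondrial calcium channel Mcu, which has no EF-hand and is gated by EF-hand proteins. Of 18 measured, 6 fell, 0 rose and 12 did not pass, against 6.92% of all genes tested called lower, and the median was -0.12. The list's mean level ran from 9.39 to 9.45 with rapamycin and from 9.51 to 9.57 with PBS. Among the 3200 genes tested with a mean from 8 to 10, 19.3% were called in either direction. Chp1, a calcineurin-like regulator of sodium and proton exchange, read lower in all rapamycin arrays and fell by 0.43 ± 0.05 (SE, adjusted p 0.00770 in limma). Mcu fell by 0.38 ± 0.05 (0.00770), Calm3, 1 of the calmodulin genes, by 0.29 ± 0.04 (0.00908), and Sri, or sorcin, by 0.20 ± 0.04 (0.0289). Micu2, a gatekeeper of the Mcu channel (-0.29 ± 0.06, 0.0304), and Ppp3r1, the regulatory subunit of calcineurin (-0.18 ± 0.04, 0.0428), were called too and were named after their values were seen. Of the 6, 0 were called without PBS replicate 2. The list had 3 genes called without rapamycin replicate 1 and 4 in each of the 4 other fits of this kind.

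**Figure D4:**
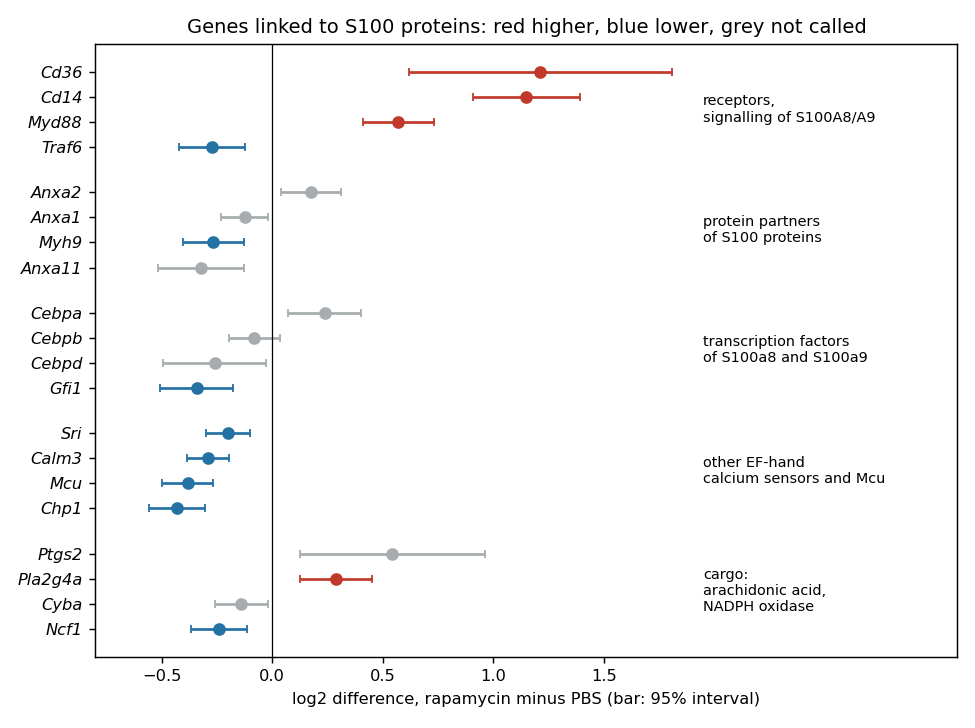
Log2 difference of rapamycin minus PBS with its 95% interval for up to 4 genes from each list linked to S100 proteins, chosen by the size of limma's moderated statistic. Cd14, Cd36 and Myd88 lie highest among the receptor genes, and Chp1, Mcu, Calm3 and Sri, picked from the calcium list, all lie below zero.

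Markers of the cells that a CD11b sort can hold moved in both directions beside the S100 genes, and their part in the results was not tested. Of 14 mature neutrophil markers 4 rose (Il1r2, Slpi, Trem1 and Il1f9) and 2 fell (Mxd1 and Cd101), with a mean level from 10.5 to 10.8 with rapamycin and from 10.6 to 10.7 with PBS. Of 13 markers of neutrophil granules and precursors, Ltb4r1 fell and 12 did not pass, with levels from 11.3 to 11.4 with rapamycin and from 11.4 to 11.5 with PBS. Of 11 monocyte markers 2 rose (Ms4a6c and Klra2) and 3 fell (Ccr2, Ace and Cd300e), with levels from 8.64 to 8.71 with rapamycin and from 8.65 to 8.82 with PBS. Of 13 macrophage markers above the threshold 2 rose (Cd68 and Hmox1) and 2 fell (Slc40a1 and Mrc1). The mean level of all 14 measured ran from 8.44 to 8.57 with rapamycin and from 8.16 to 8.52 with PBS. Of 8 dendritic cell markers above the threshold, Itgax and H2-Eb1 rose. The mean level of all 10 measured ran from 6.76 to 6.86 with rapamycin and from 6.54 to 6.68 with PBS. Among all genes tested, 4.42% were called higher and 6.92% lower. With single arrays dropped, Il1r2 kept its call in all 6 fits, Slpi, Klra2, Cd68 and Slc40a1 in 5 and Mrc1 in 4. Mxd1, Cd101, Ltb4r1, Itgax and H2-Eb1 kept it in 2, Trem1, Il1f9, Ms4a6c, Ace, Cd300e and Hmox1 in 1, and Ccr2 in 0.

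Markers of further cell types, and genes of dissociation stress, also moved in part. The mean level of all 11 measured T cell markers ran from 5.11 to 5.17 with rapamycin and from 5.36 to 5.45 with PBS. These levels lie near or under the arrays' medians of 5.42 to 5.46. Of the 8 above the threshold 3 fell (Cd3g, Cd8a and Ubash3a). With single arrays dropped, Cd8a kept its call in 0 of 6 fits, and Cd3g and Ubash3a in 1 each. Of 3 B cell markers above the threshold Cd79b fell, of 5 NK cell markers Gzmb fell, of 4 of platelets Itgb3 fell and of 7 erythroid markers Slc4a1 rose. Of 4 eosinophil markers above the threshold Alox15 rose, and the eosinophil granule genes Epx and Prg2 were under the threshold. None of 6 markers of basophils and mast cells above the threshold was called by limma, and at an unadjusted p under 0.05 there were 3 lower and 0 higher. Of 11 genes of dissociation stress, Atf3 and Hspa1a rose and Jun, Junb, Egr1 and Ier2 fell, with levels from 8.77 to 8.97 with rapamycin and from 8.99 to 9.08 with PBS. The share of genes called grew with brightness, from 3.38% at means under 6 to 24.2% at means from 10 to 12. Of the 106 marker genes tested across these lists, 32 were called, beside 11.3% of all genes tested. With single arrays dropped, 3 were called for PBS replicate 2 (Il1r2, Alox15 and Atf3), 11 for PBS replicate 3, 11 for rapamycin replicate 1, 19 for rapamycin replicate 2, 21 for PBS replicate 1 and 33 for rapamycin replicate 3.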

How the data were processed

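Log2 values, 1 per probe set and array, were deposited by the authors, who used RMA in Affymetrix Expression Console per the submitters' processing notes. The software version is not stated there. RMA evens out the arrays' distributions, and arrays can compress the differences of very bright and very dim probe sets. Of 35556 probe sets, 21789 carried 1 symbol in GEO's platform annotation, 1621 several and 12146 none. Each gene took its brightest probe set, and 13965 genes with a mean at or above the 30th percentile of named probe sets (4.72) were tested. The test was lmFit with eBayes from limma 3.58.1, 2-sided, run in R 4.3.3, with Benjamini-Hochberg adjustment over all genes tested, and the fit was checked on simulated data. Figures used matplotlib 3.10.9. Motifs were counted in RefSeq promoters of GRCm38.p6.

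Genes were named by a rule: all members, other measured S100 genes, up to 4 genes of each list by moderated statistic, marker genes that were called, and the 3 most similar genes per tested member by Pearson's r (predicted genes passed over), of which the text gives all 3 for 3 members and the first for the rest. In the search by r, small RNAs, antigen receptor segments and genes whose range over the arrays was small beside that of the member were passed over too. Itgam and Ly6g were named outside the naming rule, after their values were seen. Members, lists and tests were chosen with earlier results of these data known. The labels call the mice biological replicates. Alternatives were other brightness filters, normalizations, probe set summaries and variance models, array weights, a block for the replicate number, and fits without single arrays.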

Additional observations from a re-analysis of the deposited data

How the results depend on the processing

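The 8 members above the brightness threshold kept their direction in all alternatives except S100a10, whose difference with 1 array left out ranged from -0.10 to 0.028, the one value above 0 being that without rapamycin replicate 2. The 2 members called higher became 1 with no brightness filter, with the array medians over all probe sets aligned and with the replicate block, and 0 in an unmoderated fit, where 29 genes were higher and 57 lower in all. With 1 array left out they ranged from 0 to 1. In place of 0 members called lower there was 1 (S100a4) after quantile normalization again, with the array medians over all probe sets aligned and with array weights. Over all genes, leaving out 1 array gave from 52 to 561 higher and from 61 to 775 lower. Alignment over all probe sets gave 548 higher and 1341 lower. The cause of these shifts was not tested, except that fits with an array left out had fewer samples.

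Replicate numbers are shared between the groups. Samples with the same number deviated together by correlations of 0.263, 0.00995 and 0.0456 over genes, and 1 of the 3 rapamycin arrays correlated best with its own number, so the numbers were not taken as pairs. The replicate block gave 768 genes higher and 923 lower. S100a3 was fitted only without a brightness filter. S100a8, S100a9 and S100a11 read near the upper end of the arrays and S100a3 near the lower end, and how far this narrows their differences was not tested.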
